A study of Mus musculus with 6 samples.

Results

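The replication-dependent histone genes were examined in an ATAC-Seq peak list made from Beko cells, which are murine T-cell progenitors grown as a line. The members were all protein-coding genes of the GENCODE annotation for mouse build mm9 whose symbol starts with Hist1h, Hist2h, Hist3h or Hist4h. The rule used names only and found 67 of 22380 protein-coding genes, which were 6 H1, 19 H2A, 18 H2B, 11 H3 and 13 H4 genes. ATAC-Seq uses a transposase to insert adapters into open chromatin, so that a peak marks an accessible interval. There were 6 libraries. In 3 of them the cells had been given DAPT for 24 h, a γ-secretase inhibitor (GSI) that blocks Notch cleavage, and in the other 3 the solvent DMSO for the same time. The labels give the GSI dose as 10 mg/ml while the study's methods give the same figure in μg/ml. All libraries came from this 1 cell line. The study dealt with binding of the Notch transcription factor RBPJ, and accessibility was one of its chromatin measurements. The list analysed here holds 32527 peaks merged by the authors over both treatments, with no value per library, so there is no replicate error, no test could be made, and GSI was not compared with DMSO. Read depth is unknown from the list.

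Replication-dependent histone genes encode the bulk histones that package newly made DNA and are transcribed mainly in S phase. Most lack introns, and their mRNAs end not in a poly(A) tail but in a conserved stem-loop that is bound by the protein SLBP. They lie in clusters that gather in a nuclear structure, the histone locus body, which is organised by NPAT, and many H2A and H2B genes form divergent pairs that share the DNA between their starts.

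The stem-loop was used as a check of the gene set that is independent of the symbols. The search was for the histone form and not for any stem-loop. It fixed GG and CT in the first arm, TT at the start of the loop, and AG and CC in the second arm. The arms also had to pair, so the fixed bases of the forms below were set by the search. Such a stem of 6 bp with a loop of 4 bases was found within 100 bases after the stop codon in 61 of the 67 genes. Among 22313 other protein-coding genes the same search found it in 2, H2afx, which encodes the H2A variant of the DNA damage response, and 1700014N06Rik. The 6 forms below are shown because they are the element that defines the class, with the stem in capitals. The first form was carried by 39 genes, the second by 9, the third by 8, the fourth and the fifth by 2 each and the last by 1.
form a: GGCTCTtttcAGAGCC
form b: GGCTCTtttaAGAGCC
form c: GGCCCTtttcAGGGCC
form d: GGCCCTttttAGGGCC
form e: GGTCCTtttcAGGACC
form f: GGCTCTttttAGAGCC
The genes without a match were Hist2h2be, Hist2h2bb, Hist1h2an, Hist1h3g, Hist1h4a and Hist1h2al. In 30 genes the stem-loop itself lay inside a peak.

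The sequences between the starts of 4 divergent H2A and H2B pairs are shown next, because 2 of them lie inside a single peak and 2 have no peak. They are read on the plus strand of mm9, with the words CCAAT (NF-Y), TATAAA (the TATA box) and ATTTGCAT (octamer) in capitals on either strand. The first is at chr13:22127513-22127689, the second at chr13:23775818-23776067, the third at chr13:21845777-21845991 and the fourth at chr13:21902069-21902235.
Hist1h2ah/Hist1h2bk: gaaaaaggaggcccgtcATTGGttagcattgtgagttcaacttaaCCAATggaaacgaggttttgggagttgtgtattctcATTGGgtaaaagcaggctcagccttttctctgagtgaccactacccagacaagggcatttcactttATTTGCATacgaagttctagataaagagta
Hist1h2ac/Hist1h2bc: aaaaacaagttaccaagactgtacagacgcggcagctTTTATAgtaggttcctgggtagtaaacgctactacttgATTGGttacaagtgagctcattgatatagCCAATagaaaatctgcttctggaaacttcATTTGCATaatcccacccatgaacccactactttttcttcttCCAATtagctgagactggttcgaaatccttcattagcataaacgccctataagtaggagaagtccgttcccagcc
Hist1h2ak/Hist1h2bn: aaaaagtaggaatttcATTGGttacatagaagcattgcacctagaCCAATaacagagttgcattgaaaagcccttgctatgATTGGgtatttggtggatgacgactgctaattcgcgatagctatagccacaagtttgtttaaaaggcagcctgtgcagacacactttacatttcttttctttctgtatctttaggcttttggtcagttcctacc
Hist1h2bq/Hist1h2ao: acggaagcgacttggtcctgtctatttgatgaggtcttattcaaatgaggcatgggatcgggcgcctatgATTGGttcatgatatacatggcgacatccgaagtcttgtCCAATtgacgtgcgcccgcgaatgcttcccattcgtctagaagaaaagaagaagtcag
NF-Y is a general promoter factor, and the octamer is bound by POU2F1 (Oct-1), a factor of H2B promoters. The first pair held 3 CCAAT words and 1 octamer and lay inside a peak of 1406 bp. The second pair held 3 CCAAT words, 1 octamer and 1 TATAAA and lay inside a peak of 1468 bp. The third pair held 3 CCAAT words and no octamer, and the fourth held 2 CCAAT words and no octamer. Neither of these had a peak within 1 kb of a start. The fourth pair lies in the repeated sequence described further on, so its lack of a peak is uncertain. The 4 pairs do not stand for all pairs in this respect. Of the 8 pairs with 1 peak over both starts, 4 had the octamer in a promoter and 4 did not. None of the 3 pairs without a peak had it, but Hist1h2ap/Hist1h2br among these is a copy of the fourth pair.

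Most histone genes were accessible. A gene was called accessible when a peak lay within 1 kb of its annotated start, which was true of 46 of the 67 histone genes (68.7%) and of 43.9% of all 22380 protein-coding genes. The start itself lay inside a peak in 43 histone genes, against 40% of all protein-coding genes. The 46 genes shared 32 peaks, so neighbours are not independent observations. The exceptions among the accessible genes, with a start outside the peak, were Hist1h3f, Hist1h2ba and Hist1h2aa, which had distances of 299, 119 and 425 bp. Peaks covered 0% of Hist1h3f and of Hist1h2aa, which were counted through the peaks over their neighbours Hist1h2bh and Hist1h2ba.

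All 5 histone types had accessible genes and genes without a peak. For the linker histone H1, which binds DNA between nucleosomes, 4 of 6 genes were accessible. Of the core histone genes, 14 of 19 H2A, 13 of 18 H2B and 8 of 11 H3 genes were accessible. For H4 it was 7 of 13. Without 9 genes in repeated sequence, described further on, the counts were 4 of 6 H1, 14 of 15 H2A, 13 of 16 H2B, 8 of 10 H3 and 7 of 11 H4 genes. These are counts of genes in 1 merged list and the types were not tested against each other.

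**Figure D1:**
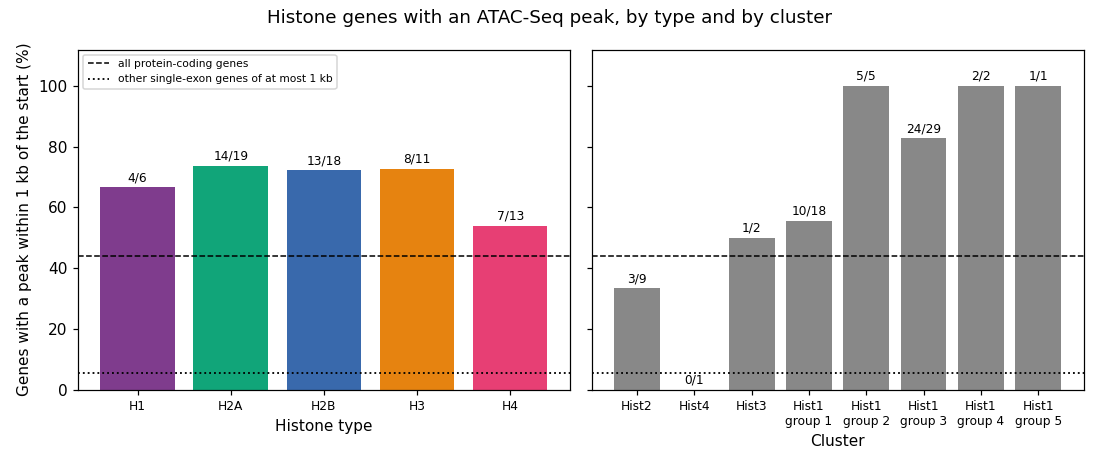
Bars show the share of histone genes with a peak within 1 kb of the start, in percent, by histone type (left) and by cluster (right), with the number of accessible genes over all genes above each bar. The dashed line is the share of all protein-coding genes (43.9%) and the dotted line that of other single-exon genes of at most 1 kb (5.44%), and among clusters of more than 2 genes only Hist2 with 3 of 9 lies below the dashed line.

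Most histone genes were short and without introns, and few had a CpG-rich promoter. Of the 67 genes, 60 had a single exon, and 51 had a single exon and a length of at most 1 kb. Of these 51, 36 were accessible (70.6%), whereas among 1582 other single-exon protein-coding genes of at most 1 kb the share was 5.44%. A promoter, taken from 250 bp before to 50 bp after the start, was called CpG-rich when its GC content was 50% or more and its ratio of observed to expected CpG was 0.6 or more. By this definition 14 histone promoters (20.9%) were CpG-rich, against 42.0% of all protein-coding promoters. The median GC content was 46% in histone genes and 55% in all protein-coding genes, while the median CpG ratio was higher in histone genes (0.690 against 0.534). Among genes with a promoter that was not CpG-rich, 39 of 53 histone genes (73.6%) were accessible, where the share of all such protein-coding genes was 22.2%. Among CpG-rich promoters it was 7 of 14 histone genes, where the share of all such genes was 73.9%. Of these 14, 5 lay in the repeated sequence described further on, and without them it was 7 of 9 (77.8%).

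The genes fell into 8 clusters when neighbours within 100 kb were joined. The Hist1 genes on chromosome 13 formed 5 groups by this rule, and group 5 lies far from the other groups. Group 3, at chr13:23622919-23856283 (233.4 kb), held 29 genes, of which 24 were accessible. Group 1, at chr13:21807632-21929399 (121.8 kb), held 18 genes, of which 10 were accessible, namely Hist1h2bl, Hist1h2ai, Hist1h3h, Hist1h2bm, Hist1h4j, Hist1h4k, Hist1h1b, Hist1h3i, Hist1h2an and Hist1h2bp. Group 2, at chr13:22126982-22135545 (8.56 kb), held Hist1h2ah, Hist1h2bk, Hist1h4i, Hist1h2ag and Hist1h2bj, and all 5 were accessible through 3 peaks. Group 4 was the pair Hist1h2ba and Hist1h2aa, and group 5 was the single gene Hist1h2al at chr13:51298057-51298434, which lay wholly inside a peak of 816 bp.

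Outside chromosome 13 fewer genes had a peak. Of the 55 genes on chromosome 13, 42 were accessible (76.4%), while the other 12 genes had 4 accessible members. The share of all protein-coding genes was 43.9%. Of these 4 members, 3 shared 1 peak. The Hist2 cluster at chr3:96023839-96082924 (59.1 kb) had 3 accessible genes of 9, and these were the adjoining Hist2h2ab, Hist2h2ac and Hist2h2be. Of the 9 genes in repeated sequence, described further on, Hist2h2aa1, Hist2h2aa2 and Hist2h3c1 lie in Hist2 and the others in Hist1 group 1. Their lack of a peak is uncertain, and so is the difference between these clusters and the rest. In the Hist3 cluster on chromosome 11, Hist3h2a was accessible, with a peak of 1675 bp that also lay within 1 kb of the start of Trim17, and Hist3h2ba was not. The single gene Hist4h4 on chromosome 6 had no peak within 1 kb.

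**Figure D2:**
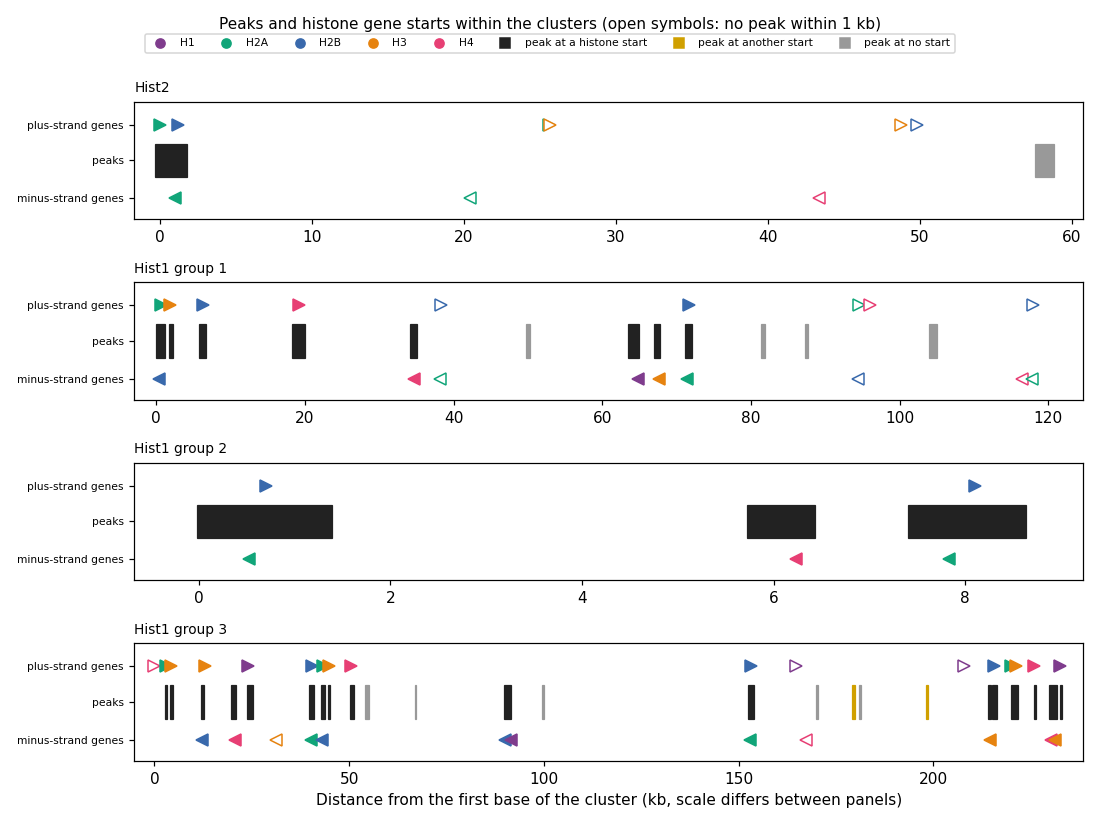
Maps of the 4 largest clusters, with peaks as boxes and gene starts as triangles by strand, in kb from the first base of the cluster (each panel has its own scale). Filled triangles are genes with a peak within 1 kb and open triangles are genes without, and in Hist2 all 3 filled triangles stand over 1 peak at the left end.

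Within the clusters most peaks stood at histone genes. The 8 clusters spanned 432.3 kb and held 44 peaks, which is 10.2 peaks per 100 kb against 1.22 over the whole genome, and peaks covered 9.85% of their bases against 0.804%. A cluster was bounded by the outer ends of its histone genes, while the genome also holds long stretches without genes. The 2 are thus unlike intervals. The longest groups, 1 and 3, had 9.855 and 10.28 peaks per 100 kb. At histone gene starts there were 32 of the 44 peaks. Another 2 were at other starts, those of Hfe, a gene of iron metabolism, and of Gm11338. The remaining 10 had no annotated start within 1 kb. One of these, at chr13:23676918-23678015 with a width of 1098 bp, covered the coding sequence of Hist1h2be, whose annotated start lies 35168 bp away in the peak of Hist1h1e. Hist1h2be was therefore counted as accessible through the peak of a neighbour, and its start codon also lay inside a peak. Another, at chr3:96081401-96082676, lay over part of the transcript of Hist2h2bb, 7757 bp from its start.

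The intervals between groups 1 to 4 on chromosome 13 held fewer peaks per length than all clusters together, and the long interval up to group 5 was not counted. Between groups 2 and 3, 1487.4 kb held 18 peaks (1.21 per 100 kb), and none of the 33 vomeronasal receptor genes there, which encode pheromone receptors of sensory neurons, was accessible. The accessible genes of that interval were Zfp322a, Abt1, Btn1a1 and Btn2a2. Between groups 1 and 2 there were 12 peaks in 197.6 kb (6.07 per 100 kb). Between groups 3 and 4 there were no peaks in 169.4 kb with 5 protein-coding genes.

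The peaks at histone starts had a median width of 1034 bp with quartiles of 787 and 1463 bp, ranging from 382 to 2123 bp. The 9001 peaks at the starts of other protein-coding genes had a median of 902 bp. More than 1 kb was reached by 17 of the 32 histone peaks (53.1%) and by 36.8% of the others. The number of starts inside the peak differed too, as 11 of the 31 histone peaks that held a start held more than 1 histone start (35.5%), against 11.6% of 7958 other peaks with their coding starts. Histone peaks with a single start had a median of 866 bp, and those with 2 or 3 starts had a median of 1406 bp. For other peaks these medians were 909 bp and 1016.5 bp.

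**Figure D3:**
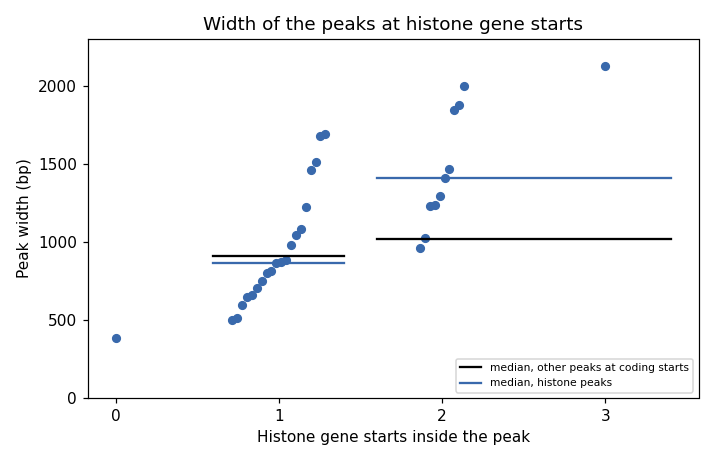
Each point is 1 of the 32 peaks at histone gene starts, by the number of histone starts inside it (x axis) and its width in bp (y axis). Blue lines are the medians of histone peaks (866 bp with 1 start, 1406 bp with 2 or 3) and black lines those of other peaks at coding starts (909 and 1016.5 bp).

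The 5 genes with the widest peaks were Hist2h2ab, Hist2h2ac, Hist2h2be, Hist1h4a and Hist1h3a. The first 3 shared the peak of 2123 bp at chr3:96023497-96025619, the only peak of the set with 3 starts inside. Hist1h4a and Hist1h3a shared a peak of 2001 bp at chr13:23852573-23854573. The other peaks shared by genes that are not a head-to-head pair were the one of Hist1h1e and Hist1h2be with 1878 bp and the one of Hist1h2ab and Hist1h3b with 1846 bp. In these shared intervals the accessibility of 1 gene cannot be told apart from that of its neighbour.

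Peaks often ran over the whole gene. Among accessible genes the median share of the annotated gene under peaks was 93.5%, and over all 67 genes it was 64.1%. In 28 genes at least 90% was covered and in 19 all of it. The genes are short, with a median of 530 bp. Among accessible single-exon genes of at most 1 kb the median covered was 100% in histone genes and 75.6% in the 86 others. In 20 of the 46 accessible genes the peak nearest the start held the annotated 3′ end. In 19 of these it held the start as well, the exception being Hist1h2ba.

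The position of the peak around the start differed between histone types. In the 4 H1 genes with a start inside a peak, the peak began at 78 to 183 bp before the start (median 147 bp) and ended at 478 to 1700 bp after it (median 1388 bp), so that it lay over the gene body. The median H2A peak began 715 bp before the start and ended 548 bp after it, and for H2B these distances were 669 and 509.5 bp. Of the 12 H2B genes, 1 had a peak that reached farther downstream than upstream. For H3 they were 204 and 572 bp, and for H4 they were 291 and 577 bp. The upstream reach of H2A and H2B took in the start of the divergent partner in the 8 pairs with 1 peak over both starts. In Hist1h2bh it was 394 bp and did not take in the start of its partner Hist1h3f. The H2B values include Hist1h2be, whose peak is that of Hist1h1e and gave the highest upstream reach of H2B, 1555 bp. Over all types the medians were 560 bp upstream and 572 bp downstream, against 385 and 492 bp in other protein-coding genes.

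**Figure D4:**
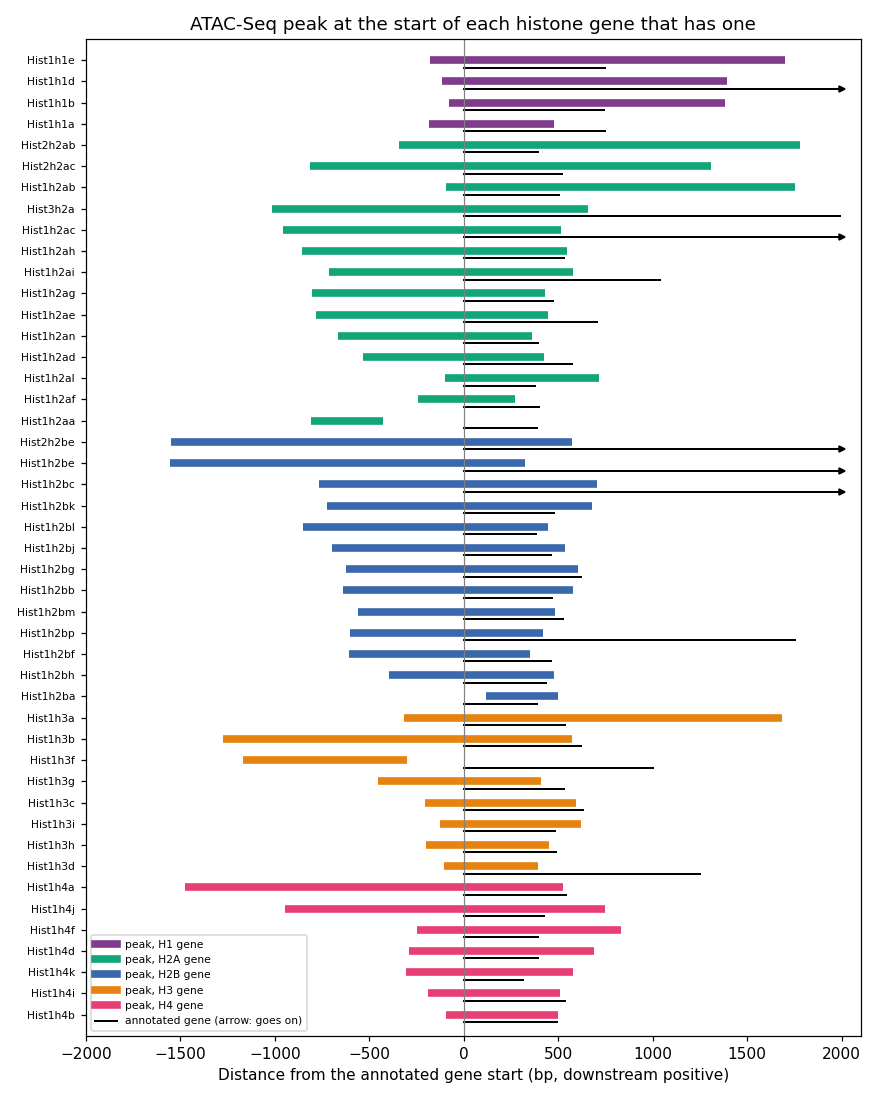
Each coloured bar is the peak nearest the start of 1 of the 46 accessible histone genes, drawn in bp from the annotated start (0) in the direction of transcription, and the black line below it is the annotated gene. The H1 bars lie mostly to the right of 0, most H2A and H2B bars extend on both sides, and the bars of Hist1h3f, Hist1h2ba and Hist1h2aa do not reach 0.

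Head-to-head pairs with starts within 1 kb made up 26 of the 67 genes. There were 13 pairs, 12 of an H2A with an H2B gene and 1 of Hist1h2bh with the H3 gene Hist1h3f. The distance between the starts was 168 to 693 bp with a median of 241 bp. In 8 pairs, all of H2A with H2B, 1 peak held both starts, and these were Hist2h2ac/Hist2h2be, Hist1h2bl/Hist1h2ai, Hist1h2an/Hist1h2bp, Hist1h2ah/Hist1h2bk, Hist1h2ag/Hist1h2bj, Hist1h2ae/Hist1h2bg, Hist1h2bf/Hist1h2ad and Hist1h2ac/Hist1h2bc. The median width of their peaks was 1265.5 bp. Among 785 head-to-head pairs of other protein-coding genes within the same distance, 627 (79.9%) had 1 peak over both starts. In 2 further pairs both genes were accessible but 1 peak did not hold both starts, namely Hist1h2bh/Hist1h3f and Hist1h2ba/Hist1h2aa. The pairs Hist1h2ak/Hist1h2bn, Hist1h2bq/Hist1h2ao and Hist1h2ap/Hist1h2br had no peak.

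Hist1h2ba and Hist1h2aa encode testis-specific H2B and H2A. Their peak, of 382 bp at chr13:24025525-24025906, was the narrowest of the 32. It lay over the gene body of Hist1h2ba and ended 119 bp short of its start, so that it did not reach the DNA between the starts. Hist1h1t, the testis-specific H1, had no peak within 1 kb, and the nearest one was 5155 bp away. A peak within 1 kb does not measure transcription of these genes, and no RNA value was used.

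Of the 21 genes without a peak within 1 kb, 9 lay in sequence that recurs elsewhere in the genome. Uniqueness was measured as the share of 50-mers within 500 bp of the start that occur once in the genome on either strand. It had a median of 70.7% in histone genes and of 100% in 447 other protein-coding genes taken at regular steps. Below 40%, 0 of 9 histone genes had a peak, whereas 20 of 24 genes had one at 40 to 70%, 20 of 24 at 70 to 90% and 6 of 10 at 90% or more. The 9 genes were Hist1h2ao, Hist1h2ap, Hist1h2bq and Hist1h2br at 0%, Hist1h4n at 4.83%, Hist1h4m at 5.78%, Hist2h3c1 at 29.8%, and Hist2h2aa1 and Hist2h2aa2 at 31.5% each. The annotated start of Hist2h3c1, chr3:96049477, lies beside that of Hist2h2aa1, chr3:96049461, and 1197 bp before its own start codon. Its RefSeq start lies 1131 bp downstream. The value of Hist2h3c1 is therefore that of the sequence around the H2A start, and uniqueness at its RefSeq start was not measured. Apart from Hist2h3c1 the 9 genes form pairs of copies on opposite strands. Hist1h2bq and Hist1h2br, and likewise Hist1h2ao and Hist1h2ap, were identical at all 1001 bases around their starts, Hist1h4m and Hist1h4n at 997, and Hist2h2aa1 and Hist2h2aa2, laid start to start, at 837. The sequence of Hist1h2bq/Hist1h2ao printed above is the exact reverse complement of that between Hist1h2ap and Hist1h2br. The authors kept 1 alignment per read, so a read from such a copy is placed at only 1 of its positions. The lack of a peak at these genes is uncertain, and the part that the copies have in it was not tested. Without these 9 genes, 46 of 58 (79.3%) were accessible. The limit of 40% was chosen after the values were seen.

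**Figure D5:**
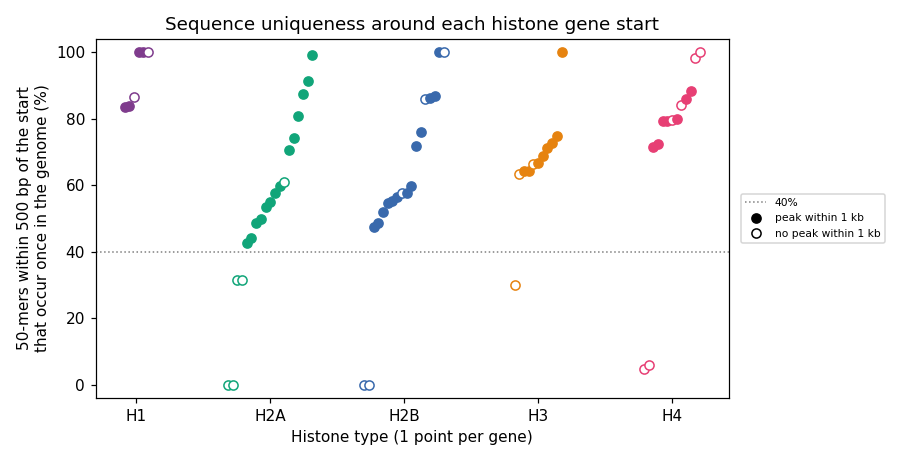
Each point is 1 of the 67 histone genes, by type (x axis) and by the share of 50-mers within 500 bp of its start that occur once in the genome, in percent (y axis). Filled points have a peak within 1 kb and open points do not, and all 9 points below the dotted line at 40% are open.

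The other 12 genes without a peak had at least 40% unique 50-mers, and 6 of them had a peak within 5 kb. They were 4 H4 genes, Hist1h4c (nearest peak 2512 bp away), Hist1h4h (2614 bp), Hist4h4 (3642 bp) and Hist2h4 (14167 bp), and 2 H3 genes, Hist1h3e (5943 bp) and Hist2h3b (8824 bp). The H2A and H2B genes among them were the pair Hist1h2ak (3099 bp) and Hist1h2bn (3315 bp), Hist3h2ba (4757 bp) and Hist2h2bb (7757 bp). The H1 genes were Hist1h1c, a somatic linker histone (6200 bp), and Hist1h1t. Hist1h1t, Hist2h2bb and Hist4h4 had 100% unique 50-mers, and Hist2h4 had 98.3%. Among the 9 genes with low uniqueness the nearest peak was 6778 to 23858 bp away.

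The promoters differed in sequence by histone type. Words were searched on both strands from 250 bp before to 50 bp after the annotated start, and each share is given beside that of all 22380 protein-coding genes. TATAAA, the word of the TATA box, was found in 38 of 67 histone promoters (56.7% against 13.4%) and CCAAT in 57 (85.1% against 37.9%). From 150 bp before the start, TATAAA was in 32 (47.8% against 9.02%), and in 4 of 18 H2B promoters where it had been in 10. A match need not be the TATA box of the gene itself. Hist1h2ah, Hist1h2bk, Hist1h2ak and Hist1h2bn were counted, but no TATAAA lay between the starts of either pair. CCAAT was in all H1, H2A and H2B promoters and in 10 of 11 H3 promoters, but in 4 of 13 H4 promoters. Hist1h2be was searched at its annotated start, 35168 bp from its start codon, so its window does not adjoin its coding sequence. GGGCGG, the GC box bound by SP1, was in 41.8% of histone and 43.4% of all promoters. Within the histone genes it was in 10 of 13 H4 and 1 of 11 H3 promoters. The H3 gene was Hist2h3c1, whose annotated start lies beside that of Hist2h2aa1.

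GGTCCG, a word of the H4 site bound by HINFP, was in 12 of 13 H4 promoters, in 1 H2B and 2 H3 promoters and in none of H1 or H2A, against 9.77% of all promoters. It was in 6 of 7 H4 genes with a peak and in 6 of 6 without, and Hist1h4a was the H4 gene without it. The 60 bases around the word are shown for 2 H4 genes with a peak and 2 without, on the strand of the gene, at chr13:23673363-23673422 (plus), chr13:23643551-23643610 (minus), chr13:23790341-23790400 (minus) and chr6:136752952-136753011 (minus), with the word in capitals.
Hist1h4d: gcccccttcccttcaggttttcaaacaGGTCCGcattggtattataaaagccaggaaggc
Hist1h4f: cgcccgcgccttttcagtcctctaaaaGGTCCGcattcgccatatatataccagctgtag
Hist1h4c: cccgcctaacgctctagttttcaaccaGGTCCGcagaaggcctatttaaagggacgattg
Hist4h4: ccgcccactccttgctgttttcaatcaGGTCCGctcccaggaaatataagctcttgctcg
The first base of the word was at -77, -66, -50 and -84 bp from the start, in this order. In Hist1h4d and Hist1h4f it lay inside the peak, which began at -291 and -247 bp. The word was present in Hist1h4c and Hist4h4 although neither had a peak within 1 kb.

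AAACACA, the H1 box, was in 5 of 6 H1 promoters against 6.43% of all promoters, and was missing from Hist1h1a, which had a peak. It is shown for these 5 genes in capitals on the strand of the gene, at chr13:21872579-21872638 (minus), chr13:23646752-23646811 (plus), chr13:23714510-23714569 (minus), chr13:23830537-23830596 (plus) and chr13:23787539-23787598 (plus). The first 3 genes had a peak and the last 2 had none.
Hist1h1b: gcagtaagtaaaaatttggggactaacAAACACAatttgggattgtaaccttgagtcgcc
Hist1h1d: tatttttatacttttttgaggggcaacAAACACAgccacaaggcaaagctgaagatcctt
Hist1h1e: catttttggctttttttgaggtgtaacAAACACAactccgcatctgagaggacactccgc
Hist1h1c: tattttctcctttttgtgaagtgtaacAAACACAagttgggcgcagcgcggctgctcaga
Hist1h1t: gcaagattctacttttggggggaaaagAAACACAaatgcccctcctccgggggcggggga
The first base was at -117, -122, -171, -112 and -114 bp from the start. In Hist1h1b the peak began at -78 bp, so that the word lay outside it, and in Hist1h1d it began at -117 bp, within the word. In Hist1h1e the peak began at -177 bp and held the word.

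The octamer ATTTGCAT was in 7 of 19 H2A and 8 of 18 H2B promoters and in no H1, H3 or H4 promoter, against 1.73% of all promoters. These 15 promoters shared 10 sites in the genome, since the windows of a pair overlap, and 7 of the sites lay inside a peak. Over all types it was in 14 of 46 accessible genes and in 1 of 21 genes without a peak, Hist2h2bb. Among H2A genes it was in 7 of 14 accessible genes and 0 of 5 without a peak, and among H2B genes in 7 of 13 and 1 of 5. Most of these H2A and H2B genes without a peak lie in the repeated sequence, where the lack of a peak is uncertain. A link between the word and accessibility was not tested. TTTNGCGC, a form of the E2F site of S-phase genes, was in 7 H2A and 7 H2B promoters and in none of the other types (1.69% of all promoters), with 8 sites in all. From 150 bp before the start it was in 7 H2A promoters and in 0 H2B promoters, and from 500 bp it was also in 1 H3 promoter. The RBPJ word TGGGAA was in 14 histone promoters (20.9%), against 24.3% of all promoters. None of these matches is evidence of binding.

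Most genes that act on histone RNA and protein were accessible. The lists were chosen by known function, and their counts stand beside the 43.9% of all protein-coding genes. Of 19 genes found for transcription and 3′ processing of histone RNA, 18 were accessible, with the start of each inside a peak. Npat had a peak of 1197 bp, Hinfp one of 902 bp, Pou2f1 one of 1453 bp and Slbp one of 1279 bp. The exception was Zfp473, which encodes a U7 snRNP-associated zinc finger protein, with the nearest peak at 1991 bp. Of 10 histone chaperone genes 9 were accessible, among them Nasp with a peak of 1654 bp, and Set was not (4351 bp). Of 14 histone genes outside the rule, which encode variants or linker histones made outside S phase or in germ cells, 7 were accessible (50%), a share near that of all protein-coding genes. They were H2afx, H2afz, H2afv, H2afy, H2afj, H3f3a and Cenpa, the centromeric H3. H3f3b (nearest peak 1979 bp), H1fx (9739 bp), H2afy2, H1foo, H1fnt, Hils1 and H2afb1 had none within 1 kb of the gene start. These exceptions depend on the start used. From any annotated transcript start, 19 of 19 RNA genes, 10 of 10 chaperone genes and 8 of 14 histone genes outside the rule were accessible. Zfp473 and Set were then among them, and the share of all protein-coding genes was 46.9%.

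The labelled cell type was checked against marker genes. Of 11 T-lineage genes found in the annotation 9 were accessible, the exceptions being Cd3d (1119 bp) and Notch1 (2417 bp), and Ptcra was not among the annotated symbols. None of 10 genes of B cells, myeloid cells or other tissues was accessible.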

How the data were processed

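The 6 ATAC-Seq libraries of Beko cells, 3 with GSI and 3 with DMSO, were grouped by their labels. Per the study's methods, the authors used HISAT2 to align reads to mm9 and reported 1 position for each read. Duplicates were discarded with Picard and MACS2 was run on each library without input. Peaks in 3 of the 6 libraries and outside blacklisted regions were kept. Hence a peak may come from 1 treatment, and reads from repeated sequence are placed at 1 of their positions. For every peak the deposited file gives a chromosome and its limits in bp. Its names and scores are empty or 0. A quantity per library was not analysed here, so the planned comparison of GSI with DMSO, leaving out libraries and pairing were not run, and nothing was tested.

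Peaks were compared with the GENCODE annotation and genome of NCBIM37, the same build as mm9, in Python 3.11.15 with numpy 2.4.6, pysam 0.24.0 and matplotlib 3.10.9. Starts were read as counted from 0 and are printed counted from 1. Genes were joined into clusters across 100 kb. Unique 50-mers were counted over the whole genome. The counting steps were tested on simulated data. The members and lists were chosen with earlier results of these data known. Named were all genes of clusters other than the largest, those without a peak, in head-to-head pairs or sharing a peak, the 5 with the widest peaks, germ-line forms and list genes without a peak. Genes named as examples, and the peaks over Hist1h2be and Hist2h2bb, were chosen after their values were seen. Alternatives were other distances, starts, peak widths, joining distances and windows.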

Additional observations from a re-analysis of the deposited data

How the results depend on the processing

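No paired analysis was possible because values were merged over the libraries, and no library could be left out for the same reason. Of the 67 histone genes, 43 were accessible with the start inside the peak, 44 within 250 bp and 46 within 500 bp. Within 5 kb the count was 52 of 67. In the same order, the shares of all protein-coding genes were 40, 41.7, 42.6 and 50.8%. With peaks of at least 1 kb alone, 31 of 67 histone genes were accessible, against 17.5% of all genes. Some annotated starts coincide with the start codon, and from the start codon the count was 46 of 67, against 33.6% of all genes. With the RefSeq start, 41 of 61 matched genes were accessible. Restricted to genes with at least 90% unique 50-mers the count was 6 of 10, and with at least 90% unique 100-mers it was 14 of 20. These restrictions test fewer genes. The start codon, the RefSeq start, the 100-mers and the limit of 40% unique 50-mers were chosen after seeing the data.

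Peaks at histone starts numbered 26 to 36, and peaks within the clusters 36 to 56, over the alternatives. TTTNGCGC was in 10.4% of histone promoters from 150 bp before the start (20.9% from 250 bp), against 1.16% of all promoters. TGGGAA was in 32.8% from 500 bp before it (20.9% from 250 bp), against 40.9% of all promoters. These are windows of another length. The median width was 1464.5 bp with peaks joined within 1 kb (1034 bp as deposited). Of 70 alternative values, 66 stayed within 1.5 times for counts, the spread over peaks or genes for widths and coverage, or the 95% interval for words. Depth and peak height are unknown, so the lack of a peak is not evidence of closed chromatin.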
